A study of Mus musculus with 6 samples.

Results

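Regulators of G-protein signalling (RGS proteins) are encoded by the Rgs genes, of which 10 were examined here in the mouse hippocampus: Rgs2, Rgs4, Rgs7, Rgs8, Rgs9, Rgs10, Rgs12, Rgs14, Rgs17 and Rgs20. Each was found by its gene symbol on 1 row of the deposited table, so that these 10 rows stand among 16060 rows in all. The table holds the RNA-seq profile of the hippocampus (HIPP) of C57BL/6 mice, with 3 libraries labelled Control and 3 labelled MA. The mice were adult males, with no age and no altered allele named in the sources. The MA mice were injected with methamphetamine (MA), a psychostimulant, at doses that rose from 5 to 10 and then 15 mg/kg over 3 weeks, and the controls with saline. Behavioral tests of anxiety were run on both groups at the end of the treatment. The values are RPKM, which are reads scaled to the length of the gene and to the reads of the library, on a scale read as log2. Levels of different genes can be compared on this per-length scale. The depth behind the values is unknown, since no counts were at hand.

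An RGS protein binds the active, GTP-loaded alpha subunit of a heterotrimeric G protein and speeds the hydrolysis of its GTP, which ends the signal of the receptor upstream. Receptors for dopamine, glutamate, acetylcholine, opioids and cannabinoids signal in this way, and the brain expresses many RGS proteins with different preferences for G proteins. By sequence they are sorted into subfamilies. The R4 members (Rgs2, Rgs4, Rgs8) are small proteins with little beside the RGS domain. The R7 members (Rgs7, Rgs9) work only as dimers with the G-beta protein Gnb5. The R12 subfamily holds the small Rgs10 and the larger scaffolds Rgs12 and Rgs14, and the RZ members (Rgs17, Rgs20) carry a cysteine-rich stretch that takes up lipid.

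No difference between the MA and the control libraries was detected for any of the 10 genes. At an adjusted p-value under 0.05 (limma, a linear model fitted over 13321 tested genes, with Benjamini-Hochberg adjustment), 0 of the 10 passed, where 0.263% of all tested genes did. All 10 had cleared the filter on low values. An unadjusted limma p-value under 0.05 was reached by 1 of the 10, Rgs10, which was lower in MA. Of all tested genes 10.4% reached it, and 5.46% did so with lower values in MA. The 3 MA libraries lay entirely above or below the 3 control libraries for 0 of the 10, against 17.5% of all tested genes. By the means, 8 were lower and 2 higher in the libraries labelled MA, and 52.7% of all tested genes were lower. These directions rest on the labels, which the immediate early genes put in doubt. The median log2 fold change, MA minus Control, was -0.11 over the 10 genes and -0.010 over all tested genes. Two-sided exact permutation tests on each gene gave p-values between 0.2 and 0.9, where 0.1 is the lowest that groups of 3 allow. In bulk tissue, fewer cells of a type and less RNA per cell cannot be told apart.

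Marker lists were used to describe the libraries. Markers of excitatory neurons, dentate gyrus granule cells and CA1 pyramidal cells were present in all 6 libraries. By the means, 3 of 5 excitatory, 4 of 5 granule cell and 4 of 5 CA1 markers were lower in MA. Of these markers 0 passed the adjusted threshold. Each MA library was below each control library for 1 excitatory and 2 CA1 markers. The CA1 markers summed to 129 to 151 in the control and 115 to 132 in the MA libraries (RPKM scale). All 5 GABAergic, all 5 astrocyte and 4 of 5 oligodendrocyte markers were lower in MA by the means. All 5 endothelial and all 5 pericyte and smooth muscle markers were higher. Of these markers too, 0 passed the adjusted threshold. Groups did not overlap for 1 astrocyte, 1 endothelial and 1 pericyte and smooth muscle marker. The part of any of these cells in the Rgs values was not tested. All 6 choroid plexus markers, none of them at 0 in any library, were higher in each MA library than in each control library. Their summed level on the RPKM scale was 64.5 to 419 in the control libraries and 1773 to 5073 in the MA libraries. The part of this tissue difference in the Rgs values was not tested. The sum of 6 thalamic markers was 24.6 to 32.6 in the control libraries and 56.4, 69.2 and 23.5 in MA replicates 1, 2 and 3. All 6 were higher in MA by the means, and the part of this in the Rgs values was not tested. The direction of the labels is in doubt. Of 4 immediate early genes, Fos, Egr1, Arc and Nr4a1, 4 were lower in each library labelled MA than in each control library, with log2 fold changes from -1.80 to -1.45 and limma adjusted p-values from 0.0181 to 0.0315 in the fit of all 6 libraries. The text of the study describes these genes as upregulated by MA, by RNA-seq and by qPCR on samples of each group. Its supplementary list of differing genes, headed control against methamphetamine-treated mice, gives all of them positive fold changes. The groups were used as labelled, and if the labels were exchanged the sign of every MA minus Control value given here would be the opposite. The library labelled MA replicate 3 stood apart, with a mean Pearson correlation across genes of 0.978 with the others of its group, while the other 5 libraries had 0.984 to 0.993. It also gave the lowest value of 29.8% and the highest value of 25.6% of all tested genes, the largest shares of any library. In MA replicate 3 the number of rows with a value of 0 was 0, and in the other 5 libraries it was 259 to 437.

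In the control libraries the levels spanned from Rgs14 at 5.75 ± 0.30 to Rgs9 at 2.29 ± 0.13 (log2 RPKM scale, mean ± SD, n = 3). The order from highest to lowest was Rgs14, Rgs10, Rgs4, Rgs7, Rgs8, Rgs2, Rgs12, Rgs20, Rgs17 and Rgs9. Neighbours in this order had ranges that did not overlap, except for Rgs10 with Rgs4 and for Rgs17 with Rgs9. Rgs10 was above Rgs4 in only 1 of the 3 control libraries, at means of 5.32 ± 0.16 and 5.28 ± 0.12. Rgs17 was above Rgs9 in 3 of 3. Rgs2 and Rgs12 differed by only 0.06 on the log2 scale, although Rgs2 was the higher in 3 of 3. In the MA libraries Rgs4 stood before Rgs10 and Rgs12 before Rgs2, and the other places were the same.

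**Figure D1:**
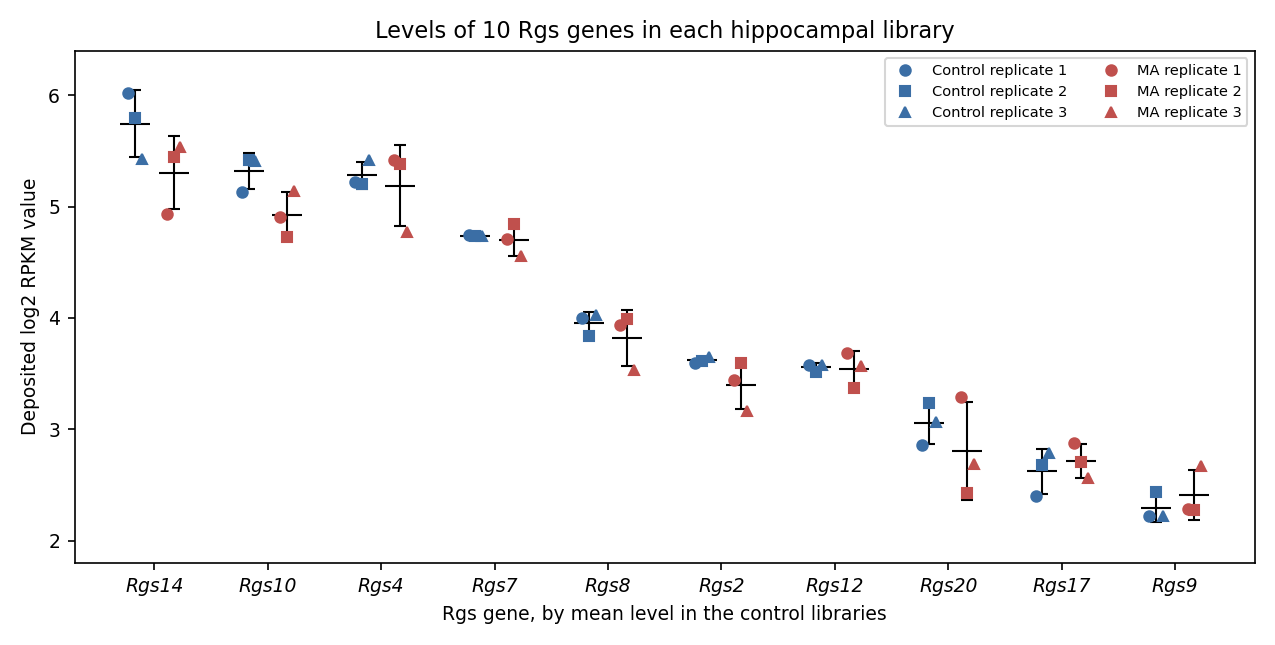
Deposited log2 RPKM values of the 10 Rgs genes (y axis) in each library, with genes on the x axis from highest to lowest control mean. Points are libraries, and bars are the mean ± SD of 3 libraries. Control and MA points overlap for every gene, and the control points of Rgs7 fall together near 4.74.

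The R12 genes Rgs10 and Rgs14 had the lowest log2 fold changes of the 10. Rgs10 (ENSMUSG00000030844), located in GRCm38 on chromosome 7 from 128373621 to 128418758 (minus strand), encodes a small protein that acts on Gi-type alpha subunits and is known from microglia and neurons. Its log2 value was 5.13, 5.42 and 5.41 in Control replicates 1, 2 and 3, and 4.91, 4.72 and 5.14 in MA replicates 1, 2 and 3. The groups touched at one point only, where MA replicate 3 was slightly above Control replicate 1. The log2 fold change was -0.40 (standard error 0.13, 95% interval -0.71 to -0.087), with a limma p-value of 0.0187 before adjustment and 0.366 after it. Of all tested genes, 5.90% had a fold change larger in size. With limma's sample quality weights, which give outlying libraries less weight, the log2 fold change was -0.55 and the adjusted p-value 0.0337. Under those weights 4.40% of all tested genes passed the same threshold. Without MA replicate 3, where 1.93% of all tested genes passed, it was -0.51 (limma adjusted p = 0.0731), and over the 6 fits that each left out 1 library it lay between -0.51 and -0.30. The sum of 5 microglial markers was 118 to 128 in the control libraries and 121 to 128 in the MA libraries on the RPKM scale, so these ranges overlapped. Of the 5 markers 2 were higher and 3 lower in MA by the means, and 0 passed the adjusted threshold. Csf1r had a log2 fold change of 0.10 (limma adjusted p = 0.781) and C1qa, the highest of the 5 in level, 0.089 (limma adjusted p = 0.751). P2ry12 had -0.23 (limma adjusted p = 0.660) and Cx3cr1 -0.099 (limma adjusted p = 0.753). Tmem119 was lower in each MA library than in each control library, with a log2 fold change of -0.13 (limma adjusted p = 0.679).

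Because Rgs10 was the 1 gene of the 10 with an unadjusted p-value under 0.05, the sequence around its start is shown. It covers 250 bases before to 50 bases after the RefSeq start on the minus strand, at chr7:128418123-128418422 of GRCm38.p6, and lies within the annotated span of the gene. Capitals mark the GC box GGGCGG on either strand.
Rgs10: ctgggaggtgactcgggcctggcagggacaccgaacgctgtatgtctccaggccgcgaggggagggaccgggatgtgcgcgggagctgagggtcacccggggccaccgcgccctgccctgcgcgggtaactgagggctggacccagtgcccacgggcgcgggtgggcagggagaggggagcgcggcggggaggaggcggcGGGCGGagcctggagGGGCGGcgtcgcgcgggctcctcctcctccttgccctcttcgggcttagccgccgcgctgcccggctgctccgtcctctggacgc
The window has a GC content of 76% and holds 2 copies of GGGCGG, a sequence found in 35.7% of the 32851 RefSeq promoter windows of this length. The TATA box (TATAAA) was not found in it on either strand, nor was the E-box (CACGTG). The core of the cAMP response element (TGACG) was not found in it either. Of the 10 genes, 8 had windows in the table, 11 windows in all, and Rgs14 and Rgs20 had none. TGACG was in 4 of the 11 windows, those of Rgs2, Rgs4, Rgs8 and Rgs12, against 20.8% of all windows. The full site TGACGTCA, which contains TGACG, was in 0 of the 11 and in 1.79% of all windows. The serum response element was in 0 of the 11 and in 1.63% of all windows. A match is a stretch of letters, and no binding was measured.

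Rgs14 (ENSMUSG00000052087), on chromosome 13 from 55369732 to 55384687 on the plus strand, encodes a scaffold that also binds Ras-type GTPases and is a known marker of CA2 pyramidal cells, where it limits synaptic plasticity. It was 6.02, 5.79 and 5.42 on the log2 scale in Control replicates 1, 2 and 3, and 4.93, 5.44 and 5.54 in MA replicates 1, 2 and 3. MA replicate 1 was the lowest library, whereas MA replicates 2 and 3 lay just above Control replicate 3. Its log2 fold change was -0.44 with a 95% interval from -0.91 to 0.027 (limma adjusted p = 0.503). Without MA replicate 1 it was -0.26, and without Control replicate 3 it was -0.60. On the back-transformed RPKM scale the means were 53.4 in the control and 39.2 in the MA libraries. Of the 6 other CA2 markers listed, 5 were tested, and 4 were higher and 1 lower in MA by the means. Their summed level, nearly all of it Pcp4, was 673 to 777 in the control libraries and 739 to 1154 in the MA libraries on the RPKM scale. Without Pcp4 the other 5 summed to 13.4 to 18.2 in the control libraries and 18.7 to 23.6 in the MA libraries. Sostdc1 is part of these sums, at 1.30 to 1.51 in the control and 2.34 to 3.11 in the MA libraries (log2 scale). The groups of every CA2 marker but Sostdc1 overlapped, and a shift of the CA2 markers as a set was not tested. Sostdc1 was the only one of them whose groups did not overlap, with a log2 fold change of 1.35 (limma adjusted p = 0.0570). It was higher in the same libraries as the choroid plexus markers, and whether it marks CA2 cells here was not tested. The part of these cells in the Rgs14 values was not tested.

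Rgs12 (ENSMUSG00000029101), the largest scaffold of the R12 subfamily, lies on chromosome 5 from 34949445 to 35039644 on the plus strand. Its log2 values were 3.58, 3.51 and 3.58 in the control libraries and 3.69, 3.37 and 3.57 in the MA libraries. MA replicate 1 was the highest library and MA replicate 2 the lowest. Between the groups the log2 fold change was -0.015, with a 95% interval from -0.26 to 0.23, and it was 0.072 without MA replicate 2. Of its exonic bases, 467 are shared with the antisense gene Gm43791, and the sources do not say whether counting used strand, so reads from both cannot be told apart.

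**Figure D2:**
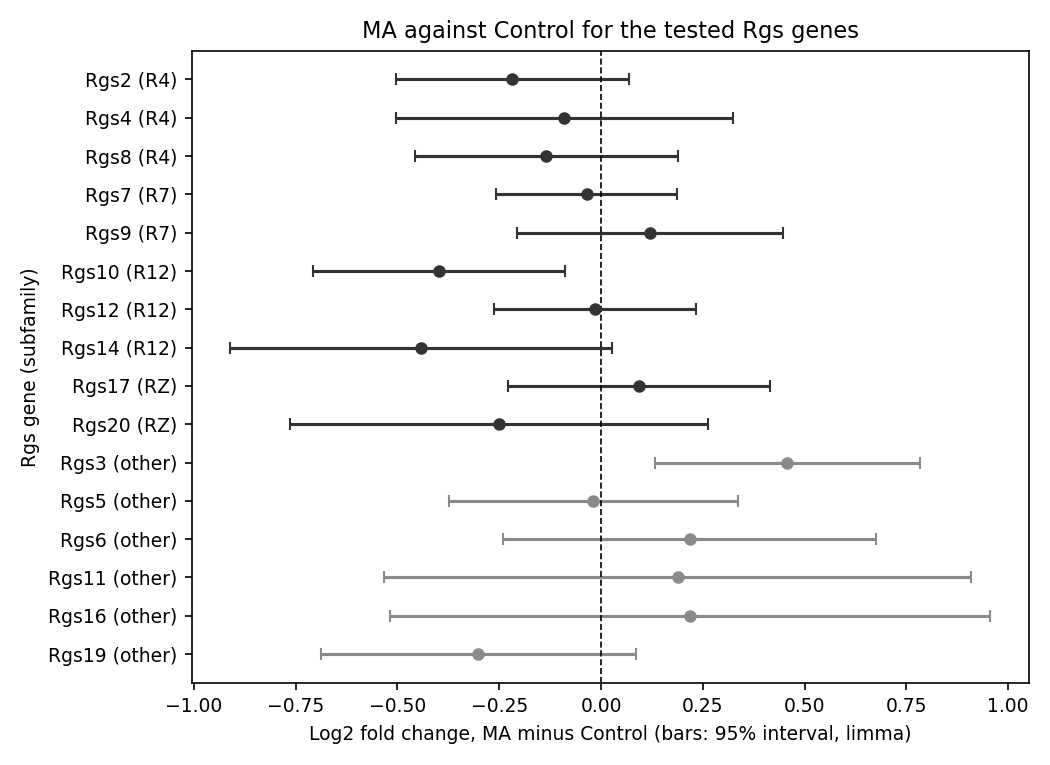
Log2 fold change, MA minus Control (x axis), of the 10 Rgs genes by subfamily and of 6 other tested Rgs genes in grey. Points are limma estimates and bars their 95% intervals, not adjusted for the number of genes. The intervals of Rgs10 and Rgs3 leave out 0, and those of the other 14 genes include it.

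The R4 genes Rgs2, Rgs4 and Rgs8 were lowest in MA replicate 3, as were Rgs7 and 29.8% of all tested genes. Rgs2 (ENSMUSG00000026360), on chromosome 1 from 143999338 to 144004161 on the minus strand, encodes a regulator with a preference for Gq and is known as a gene induced by neuronal activity. Its log2 value was 3.59, 3.61 and 3.65 in the control libraries and 3.44, 3.60 and 3.16 in MA replicates 1, 2 and 3. MA replicate 2 stood between Control replicates 1 and 2, and the other two MA libraries lay below all controls. This gave a log2 fold change of -0.22 (95% interval -0.50 to 0.069, limma adjusted p = 0.602), or -0.10 without MA replicate 3. After a further quantile normalization of the tested genes the groups of Rgs2 no longer overlapped, as for 17.8% of all tested genes under that normalization, and the adjusted limma p-value was 0.589.

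Rgs4 (ENSMUSG00000038530), on chromosome 1 from 169741477 to 169747642 on the minus strand, encodes a regulator of Gi, Go and Gq that is abundant in forebrain neurons. It was 5.22, 5.20 and 5.41 on the log2 scale in the control libraries and 5.41, 5.38 and 4.77 in the MA libraries. MA replicates 1 and 2 were thus at the upper end of the control values and MA replicate 3 was below all of them. The log2 fold change of -0.090 (95% interval -0.50 to 0.32, limma adjusted p = 0.910) became 0.12 without MA replicate 3.

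Rgs8 (ENSMUSG00000042671), on chromosome 1 from 153653025 to 153700323 on the plus strand, encodes a regulator of Gi and Go that speeds the gating of G-protein-gated potassium channels. Its log2 values were 4.001, 3.84 and 4.03 in the control libraries and 3.94, 3.99 and 3.53 in the MA libraries. Again MA replicate 3 was the lowest and the other two lay within the control range. Its log2 fold change was -0.13 (95% interval -0.46 to 0.19, limma adjusted p = 0.796), and 0.0098 without MA replicate 3. A stretch of 70 exonic bases is shared with the antisense gene Gm29529.

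Of the 10 genes, 5 are on chromosome 1, namely Rgs2, Rgs4, Rgs7, Rgs8 and Rgs20, and the R4 genes there have relatives of the family close by. Rgs5 ends 45.7 kb from Rgs4 and Rgs16 lies 40.0 kb from Rgs8, with no protein-coding gene between either pair. Rgs13 is 134 kb from Rgs2. Among these neighbours Rgs5, known from pericytes, was 4.59 ± 0.13 in the control and 4.58 ± 0.29 in the MA libraries (log2, SD, n = 3). Rgs16 was 2.01, 2.45 and 2.42 in the control libraries and 2.87, 2.93 and 1.74 in the MA libraries, so that here too MA replicate 3 was the lowest. Rgs13 fell under the filter on low values, at 0.24 to 0.60 in the control and 0.16 to 0.42 in the MA libraries.

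The R7 genes differed from each other in level. Rgs7 (ENSMUSG00000026527), on chromosome 1 from 175059087 to 175492500 on the minus strand, encodes the R7 regulator of Go found widely in brain neurons. It was 4.74, 4.73 and 4.74 on the log2 scale in the control libraries and 4.71, 4.84 and 4.55 in the MA libraries. The control libraries were closer to each other than for any other of the 10 genes, with an SD of 0.0041, and MA libraries lay on both sides of them. For Rgs7 the log2 fold change was -0.035 (95% interval -0.26 to 0.19, limma adjusted p = 0.937), and it was 0.039 without MA replicate 3.

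Rgs9 (ENSMUSG00000020599), on chromosome 11 from 109225355 to 109298129 on the minus strand, is known from the striatum, where its product dampens dopamine and opioid receptor signals, and from photoreceptors. In the hippocampus it was the lowest of the 10 genes, at 2.22, 2.43 and 2.22 in the control libraries and 2.29, 2.28 and 2.67 in the MA libraries (log2 scale). MA replicate 3 was the highest library, and the other two MA libraries lay within the control range. Its log2 fold change was 0.12 (95% interval -0.21 to 0.45, limma adjusted p = 0.828) and -0.0086 without MA replicate 3. The summed level of 6 striatal markers other than Rgs9 was 3.38 to 7.58 in the control libraries and 4.21 to 8.74 in the MA libraries on the RPKM scale.

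The 3 tested partners of the R7 proteins were lowest in MA replicate 3. Gnb5 was 5.57, 5.51 and 5.63 on the log2 scale in the control libraries and 5.59, 5.62 and 5.17 in the MA libraries. Rgs7bp, which anchors R7 dimers at the membrane, was 4.86, 4.59 and 4.97 in the control libraries and 4.99, 4.99 and 4.04 in the MA libraries. Gpr158, an orphan receptor that binds Rgs7, was 3.48, 3.47 and 3.66 in the control libraries and 3.66, 3.73 and 3.15 in the MA libraries. For all 3 genes MA replicate 2 was close to or above the highest control library. Of the 5 listed partners these 3 were tested, and 0 passed the adjusted threshold of limma or an unadjusted p-value under 0.05. Their log2 fold changes were -0.11, -0.14 and -0.024, and without MA replicate 3 they were 0.033, 0.18 and 0.16. The other partners, Rgs9bp and Gpr179, were not tested for their low values. Rgs9bp was at 0.037 to 0.22 on the log2 scale and lowest in MA replicate 1, and Gpr179 was at 0.051 to 0.29 and lowest in Control replicate 2.

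**Figure D3:**
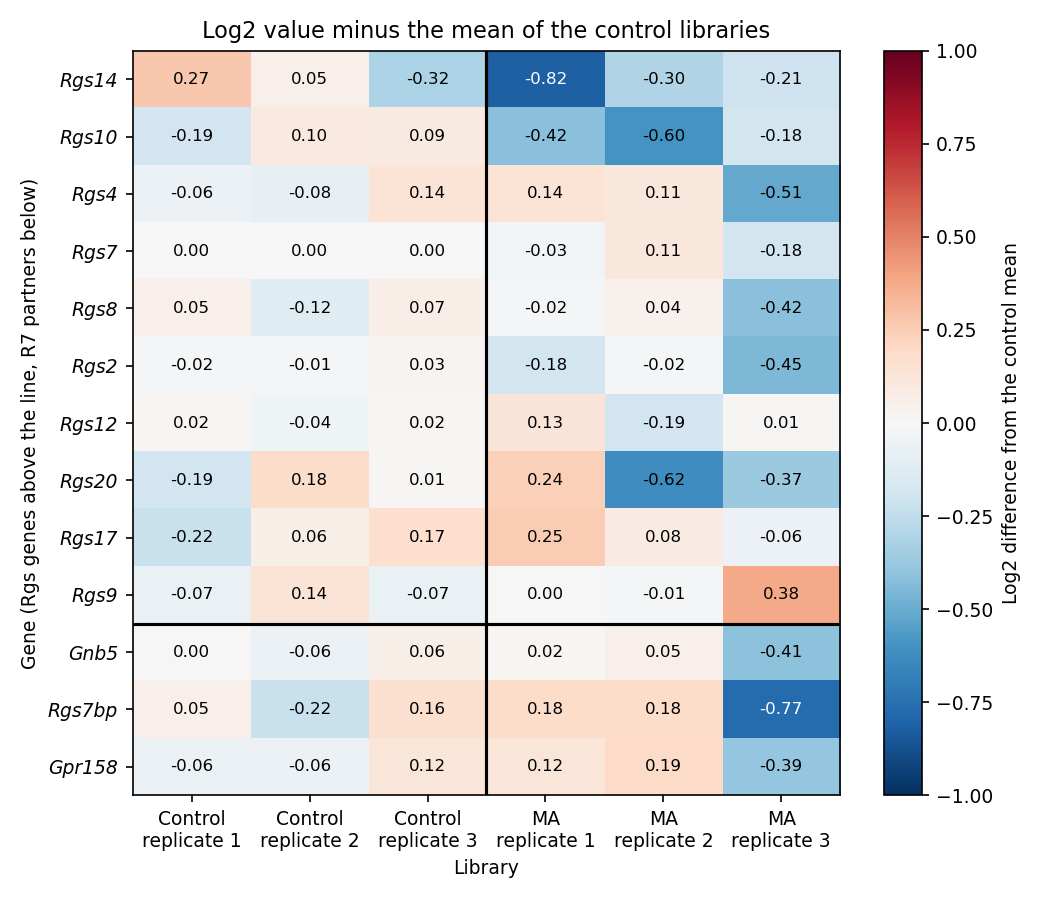
Difference of each log2 value from the mean of the control libraries, for the 10 Rgs genes from highest to lowest control mean and, under the line, 3 partners of the R7 proteins. Columns are libraries. MA replicate 3 holds the lowest cell of Rgs4, Rgs7, Rgs8, Rgs2, Gnb5, Rgs7bp and Gpr158, whereas Rgs10 and Rgs14 are lowest in MA replicates 2 and 1.

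MA replicate 3 gave the lowest value of 4 of the 10 genes, Rgs2, Rgs4, Rgs7 and Rgs8, while it gave the lowest value of 29.8% of all tested genes. It gave the highest value of 1 of the 10, Rgs9, and of 25.6% of all tested genes. Values were also more spread in the MA group. The SD of the MA libraries was larger than that of the control libraries for 9 of the 10 genes, and for 71.1% of all tested genes. Only Rgs17 had the larger SD in the control libraries.

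The RZ genes were among the low members. Rgs20 (ENSMUSG00000002459), on chromosome 1 from 4909576 to 5070285 on the minus strand, encodes a regulator named for its action on the alpha subunit Gz. Its log2 values were 2.86, 3.23 and 3.07 in the control libraries and 3.29, 2.43 and 2.68 in the MA libraries. MA replicate 1 was the highest of all libraries and MA replicates 2 and 3 were the lowest, so the MA values enclosed the control values. For Rgs20 the log2 fold change was -0.25 (95% interval -0.76 to 0.26, limma adjusted p = 0.750), and it lay between -0.50 without MA replicate 1 and -0.066 without MA replicate 2. Rgs20 shares 127 exonic bases with Atp6v1h on the other strand, so part of its reads is uncertain.

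Rgs17 (ENSMUSG00000019775), on chromosome 10 from 5825663 to 5922400 on the minus strand, encodes an RZ protein that acts on Gi and Gz and is known to restrain opioid receptor signals. It was 2.40, 2.68 and 2.79 on the log2 scale in the control libraries and 2.88, 2.70 and 2.56 in the MA libraries. The groups overlapped over most of their range. For Rgs17 the log2 fold change was 0.093 (95% interval -0.23 to 0.41, limma adjusted p = 0.871), and -0.018 without Control replicate 1.

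**Figure D4:**
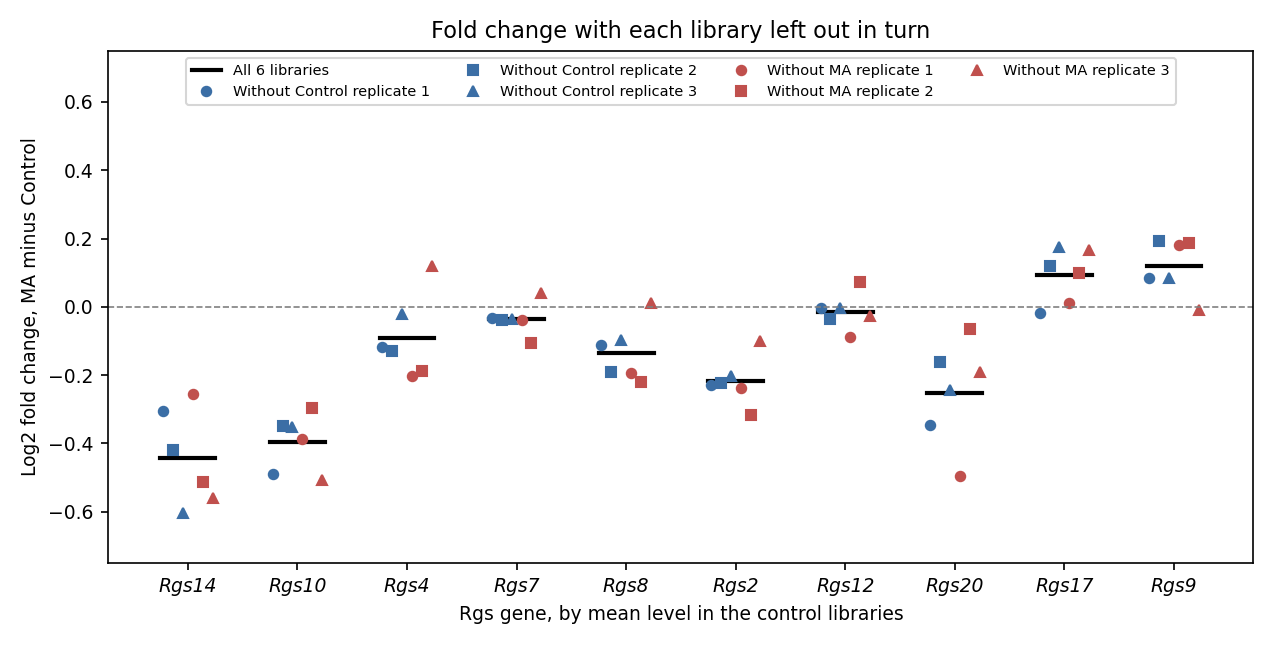
Log2 fold change, MA minus Control (y axis), of each Rgs gene from all 6 libraries (black line) and with each library left out in turn (points). Points of Rgs14, Rgs10, Rgs2 and Rgs20 stay under 0. For Rgs4, Rgs7 and Rgs8 the point without MA replicate 3 is above 0, and for Rgs9 it is under 0, while Rgs12 and Rgs17 cross 0 with another library left out.

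The 95% intervals from all 6 libraries differed in width among the 10 genes. For Rgs7 and Rgs12, the tightest, the limits correspond to ratios of 0.837 to 1.14 and 0.834 to 1.17 between MA and Control on the scale of the deposited values, which understates changes of low genes. For Rgs14 and Rgs20, the widest, they correspond to ratios of 0.532 to 1.02 and 0.589 to 1.20. These intervals are not adjusted for the number of genes. For Rgs14 the lower limit on the log2 scale went to -1.08 without Control replicate 3, and it was also under -1 with the replicate block and in the fits that left out MA replicate 2, MA replicate 3 or Control replicate 2.

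Summed on the back-transformed RPKM scale, the 10 genes came to 211, 211 and 206 in Control replicates 1, 2 and 3 and to 180, 186 and 174 in MA replicates 1, 2 and 3. Each MA library was thus below each control library. Without Rgs14 and Rgs10, which had the highest control means and also the lowest fold changes of the 10, the sums were 113, 114 and 122 in the control libraries and 122, 118 and 93.9 in the MA libraries, and the groups overlapped. Since these genes were taken out with their fold changes known, nothing is read from that overlap. The R12 share of the sum was 45.9% to 51.5% in the control libraries, and 39.0%, 41.6% and 52.2% in MA replicates 1, 2 and 3. The R4 share was 28.6% to 33.3% in the control libraries, and 36.5%, 36.0% and 25.8% in MA replicates 1, 2 and 3. These sums describe the libraries and were not tested.

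**Figure D5:**
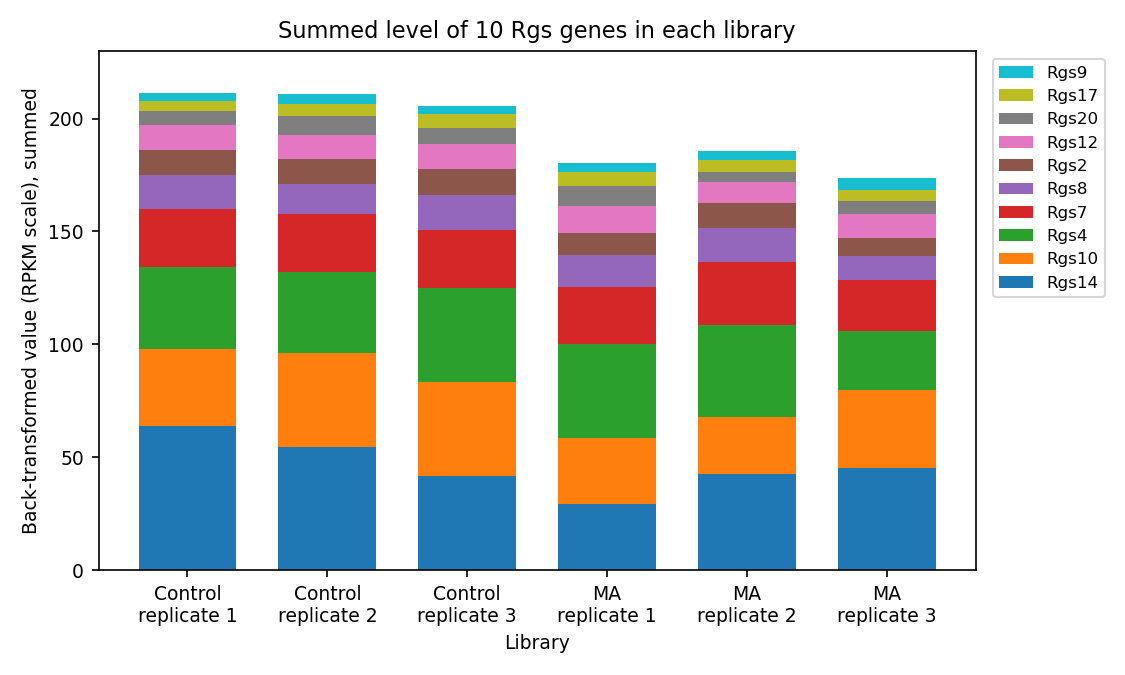
Back-transformed values of the 10 Rgs genes (RPKM scale, y axis), stacked for each library. Total heights are 206 to 211 in the control libraries and 174 to 186 in the MA libraries, and Rgs14 and Rgs10 form the lowest blocks.

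The rest of the family and the pathway were taken from lists of G-protein subunits, regulators and effectors. The 76 listed symbols include other names of Adrbk1 and Adrbk2, namely Grk2 and Grk3, which were not found. Of the 76, 72 were in the table and 62 were tested, and 0 of these passed the adjusted threshold of limma. An unadjusted p-value under 0.05 was reached by 4 genes with higher and 3 with lower values in MA, where 4.99% and 5.46% of all tested genes did so. Groups did not overlap for 5 genes that were higher and 3 that were lower, against 17.5% of all tested genes in either direction. The median log2 fold change of the 62 was -0.018. Among the other Rgs genes 6 were tested, and Rgs3, an R4 relative that acts on Gi and Gq, had the smallest p-value. It was 2.81, 3.21 and 3.28 on the log2 scale in the control libraries and 3.46, 3.59 and 3.63 in the MA libraries, so each MA library was above each control library. With a log2 fold change of 0.46 and a standard error of 0.14, the limma adjusted p-value was 0.330. Rgs1, Rgs13, Rgs18 and Rgs22 were under the filter, and no log2 value of theirs was above 0.70.

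Of the 12 tested G-alpha genes, 3 were higher and 9 lower in MA by the means, with a median log2 fold change of -0.068. Gna15, a Gq-type subunit known from blood cells, had the smallest p-value of these, at -0.43 (limma adjusted p = 0.405), and each MA library was below each control library. Among the 15 G-beta and G-gamma genes, 6 were higher and 9 lower by the means. Gng8 had the smallest p-value there, with a log2 fold change of 0.77 (limma adjusted p = 0.523), and its groups overlapped. Of 11 tested receptor kinases, arrestins and other regulators, Adrbk2, a G-protein-coupled receptor kinase, came first at 0.35 (limma adjusted p = 0.413).

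The 15 tested effectors, which are enzymes and channels that G proteins control, had 9 genes higher and 6 lower by the means. Adcy6, an adenylyl cyclase that Gi subunits inhibit, was 2.78, 2.75 and 2.82 on the log2 scale in the control libraries and 3.20, 3.21 and 3.06 in the MA libraries. Each MA library was above each control library, and the log2 fold change was 0.37 with a 95% interval from 0.16 to 0.59 (limma adjusted p = 0.238). With sample quality weights its limma adjusted p-value was 0.0275, where 4.40% of all tested genes passed the threshold.

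For the 3 genes with the smallest p-values, the tested gene with the nearest profile was sought, by the root-mean-square difference of mean-centred log2 values over the 6 libraries. It was Nox1 for Rgs10 (0.059), Shcbp1l for Rgs14 (0.052) and Terf2ip for Rgs2 (0.028). Each was picked as the closest over only 6 values, and shared regulation was not tested. Nox1 and Shcbp1l were low genes, with no log2 value above 2.06. The profiles of Rgs10, Rgs14 and Rgs2 themselves had a root-mean-square size of 0.25, 0.34 and 0.17.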

How the data were processed

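RNA of the hippocampus was sequenced in 3 control and 3 MA libraries, each taken here to be from 1 mouse. The study's methods name Hisat2 for alignment, featureCounts for counting and FPKM as the measure, whereas the submitters' processing notes name Bowtie 0.12.2 and the builds mm8 and mm9. The authors deposited 1 table named as RPKM, whose values are logarithms, taken here to be log2 of RPKM plus an offset of 1. All 6 libraries share the highest value of 12.3, so a normalization between libraries had been applied, which is not described. Values were tested as deposited, with groups as labelled. The immediate early genes were lower in the libraries labelled MA, whereas the study's text gives them as upregulated, also by qPCR. The direction of the labels is therefore open to doubt.

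Genes that reached 0.5 after back-transformation in 3 or more libraries were tested with limma 3.58.1 in R 4.3.3 (eBayes with trend, no covariate), with the threshold at an adjusted p-value of 0.05. Nothing in the labels names a batch. The fit was tested on simulated data. The 10 genes and all lists were chosen with earlier results of these data known. All 10 are named, as are the genes with the smallest p-value in each other list. Family neighbours and partners of the R7 proteins were named for their position or binding, with their values known, and the immediate early genes to check the labels. Replicates are labelled by number and were treated as separate mice. Coordinates are GENCODE M21 on GRCm38, for location only, and promoter sequences are RefSeq's on GRCm38.p6. Alternatives were another offset, filter, scaling, variance model or weights, a replicate block, and leaving out each library.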

Additional observations from a re-analysis of the deposited data

How the results depend on the processing

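Of the 10 Rgs genes, 0 passed the adjusted threshold of limma under each alternative except sample quality weights, under which 1 passed, Rgs10. Those weights also turned the log2 fold changes of Rgs4 (0.091), Rgs7 (0.057), Rgs8 (0.018), Rgs9 (-0.016) and Gnb5 (0.027). They called 2 of the 62 other tested pathway genes, Adcy5 and Adcy6, where 4.40% of all tested genes passed. Quantile normalization left 1 of the 10 with groups that did not overlap, Rgs2, where 17.8% of all tested genes did not. Leaving out each library in turn gave log2 fold changes from -0.20 to 0.12 for Rgs4, -0.11 to 0.039 for Rgs7, -0.22 to 0.0098 for Rgs8, -0.0086 to 0.19 for Rgs9, -0.088 to 0.072 for Rgs12, -0.018 to 0.18 for Rgs17 and -0.19 to 0.033 for Gnb5. It gave 0 to 1 other pathway genes called, the 1 being Gnb2 without MA replicate 3 (log2 fold change -0.35, limma adjusted p = 0.0443). Over all tested genes 35 passed, against 586 with sample quality weights, 20 with a minimum mean of 5, 3 with no filter and 0 to 257 with a library left out, 257 being without MA replicate 3 0 without Control replicate 2 or 3 or MA replicate 2, 3 without Control replicate 1 and 15 without MA replicate 1. The cause was not tested. Rgs9 fell under the minimum mean of 5 and has no value there.

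The groups share replicate numbers, but same-numbered libraries did not deviate together (r of -0.20, -0.24 and -0.34 across genes). Deviations from group means cannot show whether same-numbered libraries were handled together, and the main fit used no pairing. With the replicate block 15 genes passed over all tested genes, and 0 of the 10 Rgs genes. Since depth is unknown, the part of counting error in the spread between libraries cannot be given separately.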
